A study of Mus musculus with 17 samples.

Results

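Chromosome 1 from 130 Mb to its end (mm9) was described through the anchors of H3K27ac HiChIP loops that start at or past position 130000000. Overlapping anchors of the 17 loop lists were joined, which left 6821 anchors on this segment of 216081 in all (3.16%). HiChIP joins DNA ends that lie close together in the nucleus and then keeps the pairs bound to a protein mark, here H3K27ac, so that each loop is a pair of anchors with a number of read pairs. The segment was chosen by its bulk read pairs per anchor, which were already known to be high, so its level in bulk against the rest of the genome is a description and carries no test.

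Mouse R1 embryonic stem cells were grown as embryoid bodies in hanging drops and treated with 0.5 µM retinoic acid, and all libraries were taken at day 4. In the bulk group, 12 libraries came from the whole cell population. In the cluster2 group, 5 libraries came from cells sorted by FACS as EpCAM and CD38 double positive, in separate runs, which the study calls subpopulation 2. All 17 libraries therefore share the cell line and the retinoic acid treatment, and none is untreated. The groups differ in the sort and in their own anchor sets. A group's set was taken as the anchors found in its own loop lists: 216073 joined anchors were in the bulk set and 15082 in the cluster2 set. An anchor outside the cluster2 set thus has no cluster2 read pair by definition. Whether its read pairs were absent or only not listed cannot be told, so none listed there is not a measured absence. A library held 65148 to 241068 read pairs in bulk and 50508 to 118179 in cluster2. On a scale of read pairs relative to the TMM-scaled library size (CPM, a count per unit of depth that is the same for every library), the summed level of 5 endoderm genes (Gata4, Gata6, Sox17, Foxa2 and Sox7) was 101 to 407 in bulk and 467 to 598 in cluster2, and that of the neural genes (Pax6, Rfx4, Lhx1, Neurod1 and Pou3f2, with no anchor at Sox3) was 690 to 1548 and 38.7 to 87.7. The endoderm genes did not move as one. Gata4 and Foxa2 passed the test as higher in cluster2 (log2 fold change 1.75 and 1.53). Gata6 (0.04) and Sox7 (0.65) did not pass, and neither did Sox17, which pointed the other way (-0.55). The 5 neural genes with an anchor were all called lower. The sorted surface genes Epcam and Cd38 summed to 0 to 95.1 in bulk and 39.1 to 111 in cluster2, and neither passed the test. Among markers of other cell types, the fibroblast feeder genes spanned 15.4 to 173 in bulk and 19.9 to 58.6 in cluster2, with Twist2 and Col3a1 at 0 in cluster2, the blood genes 7.97 to 123 and 15.5 to 29.3, with Ptprc at 0 in cluster2 and no anchor at Gata1, and the pluripotency genes 40.4 to 475 and 0 to 7.97, with Nanog and Esrrb at 0 in cluster2. The part of the cell mixture in the levels below was not tested.

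H3K27ac marks active promoters and enhancers, and a loop between such sites is commonly read as a contact of a gene with its regulatory DNA. Retinoic acid acts through nuclear receptors that bind pairs of hexamers and drives embryoid bodies towards neural and endodermal fates. The distal part of mouse chromosome 1 carries Prox1, a homeobox factor of neural progenitors, liver and lymphatic endothelium, several other developmental regulators, and Lefty1 and Lefty2, secreted antagonists of Nodal.

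Every one of the 6896 anchors of the segment, before joining, starts and ends at a GATC, the site that MboI cuts, so the anchor edges are those of restriction fragments. Of the sequences, 5 are given in mm9, 5′ to 3′ with CG in capitals: the Prox1 promoter and an intronic Prox1 anchor, which stand for the genes with many bulk and few cluster2 read pairs; the middle of the anchor with most bulk read pairs; the Dedd promoter, at the gene with most cluster2 read pairs; and the middle of the anchor with most bulk read pairs from 140 to 150 Mb.
Prox1 promoter (chr1:191994510-191994809, minus strand, 250 bases before to 49 after the start): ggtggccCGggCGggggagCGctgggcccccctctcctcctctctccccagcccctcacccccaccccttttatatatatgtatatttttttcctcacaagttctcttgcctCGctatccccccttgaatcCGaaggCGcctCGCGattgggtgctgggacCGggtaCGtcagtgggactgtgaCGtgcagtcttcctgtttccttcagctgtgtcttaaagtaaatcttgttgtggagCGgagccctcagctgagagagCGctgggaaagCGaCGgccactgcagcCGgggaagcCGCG
Prox1 intronic anchor, middle (chr1:191964274-191964573, plus strand): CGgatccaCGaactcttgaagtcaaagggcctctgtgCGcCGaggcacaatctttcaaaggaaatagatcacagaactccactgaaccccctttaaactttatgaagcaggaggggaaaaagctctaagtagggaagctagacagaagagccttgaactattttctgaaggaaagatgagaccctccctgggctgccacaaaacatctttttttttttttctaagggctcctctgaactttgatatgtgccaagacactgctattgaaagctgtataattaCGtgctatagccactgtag
Anchor with most bulk read pairs, middle (chr1:135078701-135079000, plus strand): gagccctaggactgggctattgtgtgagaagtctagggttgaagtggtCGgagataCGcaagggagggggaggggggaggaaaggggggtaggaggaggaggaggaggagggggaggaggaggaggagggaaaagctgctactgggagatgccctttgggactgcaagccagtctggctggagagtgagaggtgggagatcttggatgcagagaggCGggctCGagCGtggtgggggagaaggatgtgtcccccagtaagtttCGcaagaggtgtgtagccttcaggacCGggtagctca
Dedd promoter (chr1:173259026-173259325, plus strand, 250 bases before to 49 after the start): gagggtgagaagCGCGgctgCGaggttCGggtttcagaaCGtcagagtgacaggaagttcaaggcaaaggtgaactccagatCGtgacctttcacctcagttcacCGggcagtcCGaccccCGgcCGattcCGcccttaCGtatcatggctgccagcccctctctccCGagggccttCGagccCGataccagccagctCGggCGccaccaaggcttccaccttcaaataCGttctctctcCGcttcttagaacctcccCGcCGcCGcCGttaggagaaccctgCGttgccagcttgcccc
Ptprc intronic anchor, middle (chr1:140032829-140033128, plus strand): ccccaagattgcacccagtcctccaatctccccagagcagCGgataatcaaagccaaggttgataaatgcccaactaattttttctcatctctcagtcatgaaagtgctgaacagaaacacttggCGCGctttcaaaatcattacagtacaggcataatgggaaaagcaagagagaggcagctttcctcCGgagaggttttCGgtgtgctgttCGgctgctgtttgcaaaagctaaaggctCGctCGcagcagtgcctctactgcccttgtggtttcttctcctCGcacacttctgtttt
The promoters of Prox1 and Dedd held 18 and 24 CG dinucleotides in 300 bases, against a median of 10 over the 573 protein-coding promoters of the segment. The anchor with most bulk read pairs held 7, the Prox1 intronic anchor 5 and the Ptprc anchor 9.

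In bulk libraries 10.8% ± 1.79 (SD, n = 12) of all listed read pairs fell on the segment, and in cluster2 libraries 1.92% ± 0.0678 (SD, n = 5). Bulk shares ran from 8.66 to 13.8% and cluster2 shares from 1.81 to 1.999%, with no overlap between the groups. Divided by the anchors of each group's own set, bulk libraries held 3.86 ± 0.763 times as many read pairs per anchor as the rest of the autosomes (2.98 to 5.21; chromosome 2 from 150 Mb, which was high in the same way, was left out of the rest). Cluster2 libraries held 0.725 ± 0.0261 times as many (0.685 to 0.756), so that every bulk library lay above and every cluster2 library below 1. Against chromosome 1 before 130 Mb, the ratio was 4.54 ± 0.956 in bulk and 1.25 ± 0.0511 in cluster2, since that part of the chromosome was itself low in cluster2 (0.580 ± 0.0184 of the rest). The direction in cluster2 thus depends on which part of the genome it is set against, and the direction in bulk was the same against both. Over anchors in both sets alone, the bulk ratio to the rest was 1.98. Chromosome 2 from 150 Mb stood at 3.92 ± 0.811 in bulk and 0.935 ± 0.0252 in cluster2.

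**Figure D1:**
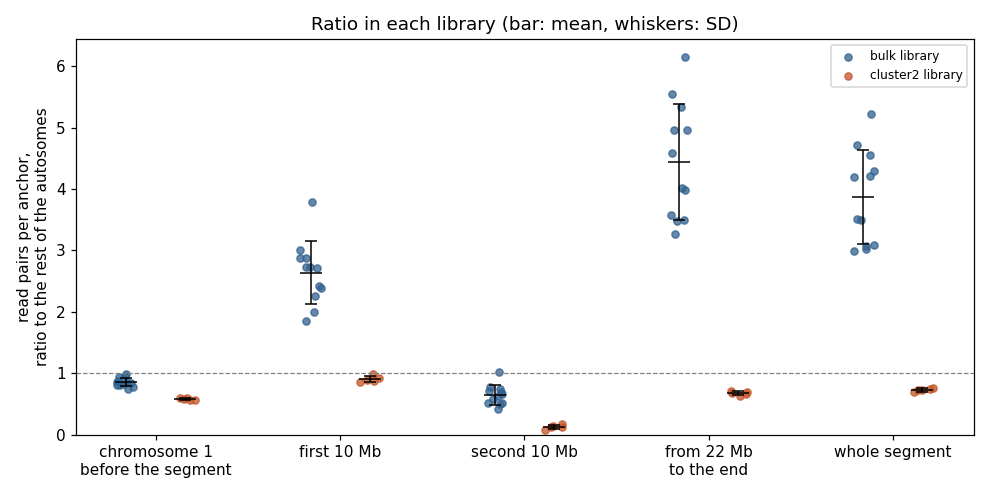
Read pairs per anchor relative to the rest of the autosomes (y axis), for chromosome 1 before the segment and for stretches of the segment (x axis); each point is 1 library, bars are means and whiskers SD. All 12 bulk libraries lie above 1 over the whole segment and over its last stretch, and the second 10 Mb lie lower than their neighbours in both groups.

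Across the 12 bulk libraries the segment ratio was lower where depth was higher (Pearson's r = -0.720, Spearman's rho = -0.804) and higher where the chromosome 2 ratio was higher (r = 0.858, rho = 0.804). These are descriptions with no test: the segment was chosen by the same values, both ratios share the rest of the autosomes as denominator, and that rest makes up most of the depth. Without the 2 libraries farthest from the median of the x axis, r was -0.603 and 0.757.

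In 1 Mb windows the segment was not evenly high. The median autosomal window outside it held 9.15 bulk read pairs per anchor, summed over the 12 libraries, and 370 of 2217 such windows (16.7%) held at least 2 times that. On the segment 52 of the 64 windows with at least 10 anchors did. From 130 to 140 Mb the median window held 24.9 read pairs per anchor and the highest, the window that starts at 135 Mb and holds Sox13 and Btg2, 83.0. In the 12 windows from 140 Mb up to 152000001 the median was 3.03, and no window reached 2 times the autosomal median. From 153000001 to 197000000 every window passed that level in an unbroken run of 44 Mb, which was the longest run on the chromosome. A shorter run lay at 133000001 to 140000000, and 1 more crossed the start of the segment, at 128000001 to 131000000.

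**Figure D2:**
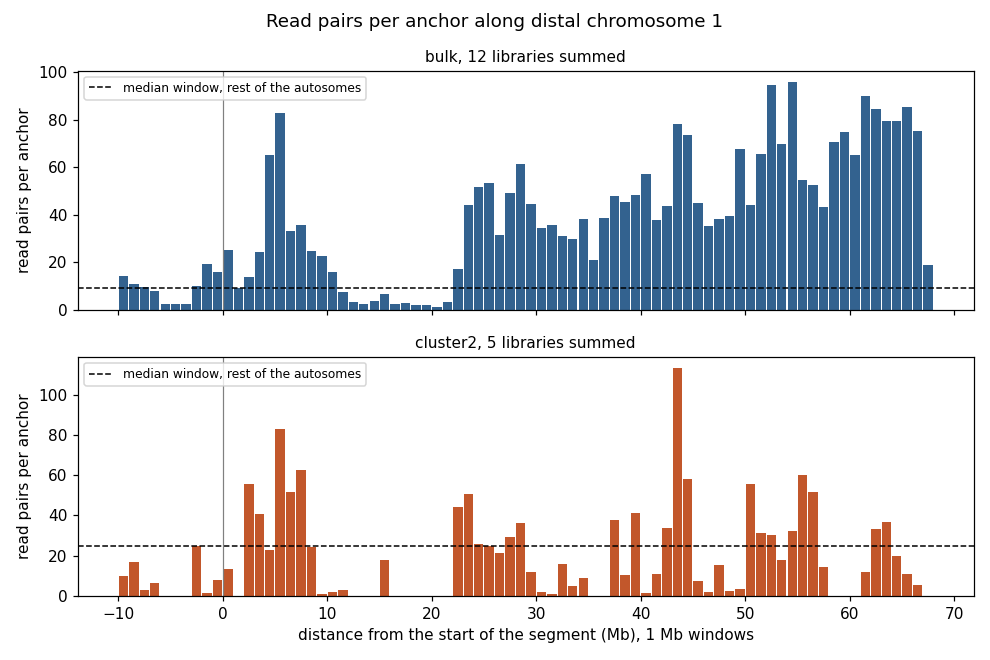
Read pairs per anchor (y axis) in 1 Mb windows by distance from the start of the segment (x axis), for 12 bulk libraries summed (top) and 5 cluster2 libraries summed (bottom); dashed lines give the median window of the rest of the autosomes. Bulk rises at about 4 Mb, falls below the median between 11 and 22 Mb, and stays above it from 22 Mb to the end, while cluster2 has separate high windows and gaps with no anchor.

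The start of the segment was not an edge in the data. The last 3 anchors before 130 Mb held 7, 11 and 15 bulk read pairs, and the first 3 after it 2, 5 and 9, with none in cluster2. The rise into the distal run was uneven. In steps of 100 kb, those at 152.2, 152.3 and 152.4 Mb held 10.7, 14.5 and 7.1 bulk read pairs per anchor. The step at 152.5 Mb was a dip, with 3.0. Those at 152.7, 152.8 and 152.9 Mb held 16.7, 25.5 and 55.7, and the step at 153 Mb was a local peak, with 83.6. Levels then fell to 37.5, 37.1 and 18.8 at 153.1, 153.2 and 153.3 Mb. The level was higher in the distal part of that run: the median window held 43.9 read pairs per anchor from 152000001 to 180 Mb and 75.0 from 180 Mb to 197000000. Cluster2 windows went from a median of 15.8 to 30.6 over the same stretches, over windows that hold a cluster2 anchor. The highest bulk windows started at 184 Mb (95.9 read pairs per anchor, with Tlr5 and Capn2) and at 182 Mb (94.8, with Psen2). The highest cluster2 window started at 173 Mb, with 113 read pairs per anchor over 25 anchors, and it is rich in genes, 36 of them with an anchor.

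Windows with many anchors also hold more read pairs per anchor: the autosomal median rose from 1.94 in windows of 10 to 29 anchors to 16.5 in windows of 130 or more. Set against windows with a like number of anchors, 44 of the 45 windows from 152000001 to 197000000, the run at 1.5 times the median, still held at least 2 times the median of their class, 41 of them in each of the 12 bulk libraries. Outside the segment 281 of 2217 windows (12.7%) did. Only 4 of the 10 windows from 130 to 140 Mb did, and none between these stretches. The number of anchors in a window is itself set by the calls on these libraries.

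The stretch from 140 to 150 Mb held 409 anchors with 3443 bulk read pairs and 7 anchors with 48 cluster2 read pairs. Its first 1 Mb window was not low: it held 122 anchors and 1940 bulk read pairs, 15.9 per anchor or 1.74 times the autosomal median. The Ptprc anchor, the start of Dennd1b and the Nek7 loops given below lie in that window. Its read pairs per anchor were 0.646 ± 0.161 times the rest of the autosomes in bulk and 0.127 ± 0.0340 times in cluster2. Of the 12 bulk libraries, 1 reached the level of the rest (1.02). Its gene density was 3.0 protein-coding start sites per Mb, against 8.53 on the whole segment and 8.58 on the rest of the autosomes. The median GC content of the 467 anchors from 140 Mb up to 152000001 was 39.7%, against 44.0% over the segment. Windows there held 0.691 to 1.91 times the median of windows with a like number of anchors, so the stretch was low against its neighbours and about level with windows as poor in anchors. Its anchor with most bulk read pairs, at 140031343 to 140034614 in an intron of Ptprc, the CD45 gene of blood cells, held 73 bulk read pairs and 1 in cluster2. The start site of Ptprc itself had 44 bulk read pairs and none in cluster2.

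The genes with most bulk read pairs from 140 to 150 Mb were Dennd1b (93), Cdc73, a subunit of the PAF complex that travels with RNA polymerase II (81), and Crb1, an apical polarity protein (64). Cdc73 was the one of the 3 with cluster2 read pairs in each library: 17.2 to 102 CPM in bulk, with a median of 71.3, and 21.6, 14.7, 15.5, 23.8 and 15.9 in cluster2. Its groups overlapped. The loops with most bulk read pairs there joined neighbouring anchors inside Nek7, a mitotic kinase, with 9 and 8 read pairs, and had none in cluster2.

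Of the 6821 anchors all were in the bulk set and 393 (5.76%) in the cluster2 set, against 6.92% on the rest of the autosomes. The bulk anchors held a median of 34 read pairs (quartiles 17 and 62, highest 707), against 7 on the rest. The excess was thus spread over the anchors: 1257 of them held the upper 50% of the bulk read pairs, and the 100 leading ones 9.85%. The cluster2 anchors of the segment held a median of 24 read pairs, against 35 on the rest. Of the 50 windows with at least 100 bulk anchors 6 had no cluster2 anchor (100 of 1186 on the rest), among them the 3 windows from 188 to 191 Mb, where Tgfb2 and Esrrg lie.

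Among the 5 anchors with most bulk read pairs, the leading one lay outside any protein-coding gene. It ran from 135076722 to 135080979, had no start site within 5 kb, and held 707 read pairs in bulk and 93 in cluster2. In CPM it stood at 196.96 to 499 in bulk, with a median of 323, and at 47.0, 81.8, 24.4, 33.7 and 53.9 in the cluster2 libraries, with no overlap. The next was at the start of Vangl2, a planar cell polarity gene (173953880 to 173959118), with 590 bulk and 65 cluster2 read pairs. The anchor at Nuak2, an AMPK-related kinase (134218298 to 134220290), held 571 and 26. The anchor at Dcaf8, a substrate receptor of a ubiquitin ligase (174077013 to 174079743), held 541 and 201, and the one in Sox13 (135293548 to 135296122) 539 and 40. Of the 5, the Dcaf8 anchor had the highest cluster2 level, 112, 116, 89.4, 122 and 110 against 176 to 309 in bulk, and its direction turned with library size in place of TMM (log2 fold change -1.09 against 0.56).

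Prox1 had both kinds of anchor. The anchor over its start site (191991628 to 191997758) held 465 bulk and 11 cluster2 read pairs, at 157 to 297 CPM in bulk, with a median of 200, and at 3.92, 10.6, 4.07, 4.21 and 6.74 in cluster2. The intronic anchor (191961892 to 191966955) held 484 bulk read pairs in 153 loops and had no cluster2 read pair listed. Among the loops at the start site the one with most bulk read pairs, 43, reached an anchor at 192013113, outside the gene, and had 2 read pairs in cluster2. The start site and the intronic anchor were joined by 29 bulk read pairs, seen in 12 of 12 bulk libraries, and by none in cluster2.

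The 3 anchors with most cluster2 read pairs had slightly or clearly fewer in bulk, although bulk had more libraries. The anchor from 173271974 to 173276857 lies within 5 kb of start sites of Nit1, Pfdn2 and Dedd, and held 306 cluster2 and 300 bulk read pairs. Its level was 163, 161, 183, 160 and 177 CPM in cluster2 and 75.1 to 276 in bulk, with a median of 123, and the groups overlapped. The anchor at the start of Dedd (173258035 to 173261876) held 267 and 160, at 141, 126.6, 167, 134.8 and 166 in cluster2 and 30.05 to 117 in bulk, with no overlap. The anchor at Csrp1, a LIM domain protein (137624510 to 137630423), held 266 and 264.

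In an edgeR quasi-likelihood fit over all anchors with at least 20 read pairs, 86.0% of 43452 tested anchors were called, 75.5% lower and 10.5% higher in cluster2. Of the 6821 anchors of the segment 4841 passed that filter, mostly through their bulk read pairs; 4753 were called lower and 8 higher. The contrast is the one that chose the segment, and an anchor outside the cluster2 set has no cluster2 read pair by definition. Nothing is therefore read from these counts. The 8 became 102 with library size alone and 19 with DESeq2.

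Loops on the segment were many and thin in bulk and few and strong in cluster2. Inside the segment cluster2 loops can join only the 393 anchors of that set, and bulk loops 6821. The same shares were not computed on the rest of the autosomes, so no trait particular to the segment is read from them. There were 103265 bulk loops with 165699 read pairs inside the segment and 2210 cluster2 loops with 7821, and 1323 loops were in both. Another 295 loops crossed its start, with 297 bulk read pairs. Counting these, 75.3% of the bulk loops had 1 read pair, 36 were seen in all 12 bulk libraries, and the 100 leading loops held 2.36% of the bulk read pairs. In cluster2, 151 loops were seen in all 5 libraries, and the 100 leading loops held 33.5%.

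The leading bulk loop joined the start of Vangl2 to an anchor in the same gene at 173945986, 9351.5 bp between anchor centres, with 144 bulk and 8 cluster2 read pairs. The next were a loop inside Nuak2 (109 and 8), a loop from 182697395 to 182709460 outside protein-coding genes (72 and 34), a loop between Cntn2 and Nfasc (68 and none) and a loop from 158710739 to 158721218 outside protein-coding genes (66 and none). Cntn2 and Nfasc both encode adhesion proteins of axons, and their loop spans 69736.5 bp, the longest of the 5. The leading cluster2 loop joined that Dedd anchor to the anchor at Nit1 and Pfdn2, with 73 cluster2 and 24 bulk read pairs. It stood at 53.9, 67.8, 77.0, 28.1 and 58.7 CPM in cluster2 and at 0 to 56.4 in bulk. The others lay inside Csrp1 (58 and 47) and at the starts of Tor1aip1 and Tor1aip2, which encode activators of the torsin ATPases (57 and 18).

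Over all loops, 60.5% of 5369 tested were called, 38.1% higher and 22.4% lower in cluster2. On the segment 298 of 104447 loops passed the filter; 24 were called higher, the Dedd (adjusted p = 0.00537) and Tor1aip loops (adjusted p = 0.0108) among them, and 181 lower. Both of these calls were lost with a minimum of 50 read pairs (adjusted p = 0.101 and 0.120), and that of the Tor1aip loop also with no filter (0.0541), without bulk replicate 2 (0.0597) and without cluster2 replicate 5 (0.0529). With library size alone the counts were 117 and 143, so their split turns on the scaling.

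Of the 573 protein-coding genes with a start site on the segment, 549 had an anchor within 5 kb, and their read pairs were summed. All genes with an anchor near the start share the read pairs of that anchor with their neighbours, as at Dedd, Nit1 and Pfdn2. The 257 genes with an anchor in the cluster2 set are those with cluster2 read pairs, and the other 292 had none.

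Genes with most bulk read pairs spanned signalling, transcription and cell shape. Hhat, which attaches palmitate to Hedgehog proteins, led with 1148 bulk and 43 cluster2 read pairs. Its level was 625.3 to 1353 CPM in bulk, with a median of 1120, and 57.5, 34.2, 69.7, 31.8 and 27.9 in cluster2. Plxna2, a semaphorin receptor of axon guidance, had 1098 and 11, and Sox13, an SRY-box factor, 1036 and 93. The groups did not overlap for any of the 3. Then came Ptpn14, a tyrosine phosphatase (851 and 16), Igsf8, a membrane protein of the immunoglobulin superfamily (841 and 181), and Cdc42bpa, a kinase that acts below Cdc42 (810 and 21). Psen2, the catalytic subunit of gamma-secretase (800 and 42), Smyd2, a lysine methyltransferase (799 and 25), Vangl2 (790 and 65) and Nuak2 (779 and 34) completed the 10. Igsf8 was the nearest to its bulk level: 594 to 998 CPM in bulk, with a median of 753, and 158, 210, 194, 199 and 175 in cluster2.

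The 5 genes with most cluster2 read pairs all start in the window at 173 Mb. Dedd, named for its death effector domain, had 500 cluster2 and 476 bulk read pairs, and Pfdn2, a subunit of the prefoldin chaperone, 489 and 624. Usp21, a deubiquitinating enzyme, had 387 and 374, Ufc1, the conjugating enzyme of the ubiquitin-like protein UFM1, 338 and 323, and Nit1, a nitrilase-like amidase, 306 and 300. Dedd stood at 485, 449, 565, 517 and 538 CPM in cluster2 and at 230 to 687 in bulk, with a median of 401. The groups overlapped for all 5 genes, and none passed the test with TMM (log2 fold change 0.30 ± 0.19 (SE) for Dedd, adjusted p = 0.165; -0.12 ± 0.18 for Pfdn2, adjusted p = 0.597). Dedd was called higher with library size alone (0.50, adjusted p = 0.0217), with DESeq2 (0.39, adjusted p = 0.0472) and with start sites taken within 2.5 kb (0.87, adjusted p = 0.000565). As CPM of all listed read pairs, Dedd stood at 302 in bulk and 1247 in cluster2 and its log2 fold change was 2.05.

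**Figure D3:**
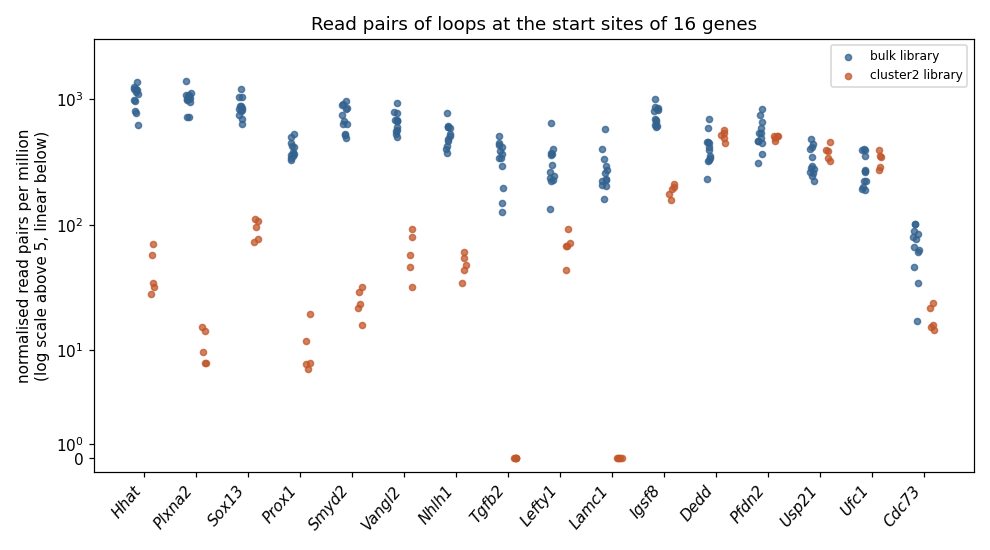
CPM (y axis, log scale above 5 and linear below) of loops at the start sites of 16 genes (x axis); each point is 1 library. Tgfb2 and Lamc1 are at 0 in all 5 cluster2 libraries, Prox1 is at 7.18 to 19.5 there and at 326 to 525.8 in bulk, and Dedd, Pfdn2, Usp21 and Ufc1 overlap between the groups.

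Over all genes 63.4% of 14115 tested were called, 42.5% lower and 20.9% higher in cluster2. Of the segment's genes 497 passed the filter, 457 were called lower and none higher with edgeR. With all listed read pairs as library size 351 were lower and 60 higher, with library size alone 445 and 3, and with DESeq2 455 and 1. The median log2 fold change was -4.55 over the segment's genes and -0.50 over all genes tested. Those 2 medians moved together with the scaling, to -3.70 and 1.21 with all listed read pairs. Genes with no cluster2 anchor, 241 of 241 called lower, make up much of the count. Of the 256 tested genes with one, 216 were called lower, with a median of -2.25, beside 26.6% lower and a median of 0.01 over all such genes. Over loops between anchors in both sets the medians were -1.05 and 0.43. The contrast is the one that chose the segment, and these values are descriptions.

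In each list most tested members were called lower in cluster2 with TMM, as were the genes of the segment around them, and each list is given beside those 42.5% and a median of -0.50 over all genes. Of 24 transcription factors 23 were matched by symbol, all with an anchor, and 22 were called lower (median log2 fold change -5.35); 11 had no cluster2 read pair. The remaining one, Zbtb18, is annotated under its older symbol Zfp238 and stands outside these counts, with 392 bulk and 8 cluster2 read pairs (log2 fold change -5.24). With all listed read pairs as library size 17 of the 23 were lower and 3 higher. Over anchors in both sets, where at most the 12 factors with a cluster2 anchor can be fitted, 6 were lower. The log2 fold change was -3.21 for Sox13, -3.42 for Nhlh1, a neuronal basic helix-loop-helix factor, and -5.05 for Prox1. On the gene scale, and from the same read pairs as its start-site anchor, Prox1 had 326 to 525.8 CPM in bulk, with a median of 370. In cluster2 it had 7.18, 19.5, 7.75, 7.95 and 11.96. The nuclear receptor Esrrg and the mesendoderm factor Mixl1 had 337 and 170 bulk read pairs and none listed in cluster2. Elf3, an epithelial Ets factor, was the one that was not called: it had 82 bulk and 93 cluster2 read pairs (log2 fold change 0.38 ± 0.30, adjusted p = 0.275), and with all listed read pairs it was called higher (2.14, adjusted p = 4.53e-08).

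The list of secreted TGF-beta family members holds 1 ligand and 2 inhibitors of Nodal, and all 3 were called lower. Tgfb2 had 345 bulk read pairs, at 126 to 505 CPM with a median of 352, and none in cluster2, where no anchor near its start was listed. Lefty1 had 330 bulk and 66 cluster2 read pairs and Lefty2 148 and 3. Lefty1 stood at 133 to 646 in bulk and at 68.2, 44.0, 93.0, 71.5 and 67.8 in cluster2, so the groups did not overlap. With all listed read pairs as library size it was not called (log2 fold change -0.40, adjusted p = 0.213).

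The laminin genes Lamc1 (323 bulk read pairs) and Lamb3 (154), which encode chains of the basement membrane, had no cluster2 read pair listed and were called lower. Of the 10 RGS genes, which speed the shut-off of G protein signals, 8 had an anchor, 6 were tested and all 6 were called lower. Only 2 of the 8 had an anchor in the cluster2 set. The other 6 had no cluster2 read pair and could pass the filter through bulk alone. Rgs8 (497 and 27) and Rgs4 (101 and none) had most, and Rgs13 and Rgs1 from the low stretch had 12 and 1 in bulk.

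Of 9 genes of mitosis 8 were tested and called lower, with Nek2, a centrosome kinase (410 and 45), and Nsl1, a kinetochore subunit (154 and 27), in front. Only 3 of the 9 had an anchor in the cluster2 set. The other 6 had no cluster2 read pair and could pass the filter through bulk alone. With all listed read pairs 7 were lower and Nsl1 was not called (-0.51, adjusted p = 0.165), and over anchors in both sets 2 were lower. All 8 chromatin genes were called lower and all had a cluster2 anchor. Smyd2 (799 and 25) and Smyd3 (759 and 43), both lysine methyltransferases, led, although over anchors in both sets Smyd3 was not called (log2 fold change -0.30, adjusted p = 0.595). Hnrnpu, a nuclear RNA-binding protein, had 278 and 87, and its direction turned with all listed read pairs (-1.44 against 0.29). Their median was -2.58, and with all listed read pairs as library size 5 of 8 were lower. Of the genes of neuronal channels, synapse and adhesion (17 names, 18 annotated entries, since Nav1 has 2), 17 entries were tested and 16 called lower. Of the 18 entries 13 had an anchor in the cluster2 set and 5 had no cluster2 read pair. Plxna2 and Camk1g, a calcium-dependent kinase (468 and 13), led, and 1 Nav1 entry was not called (146 and 86, log2 fold change -0.61 ± 0.28, adjusted p = 0.0550; 1.13, adjusted p = 0.000655 with all listed read pairs).

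Features that the choice of the segment did not use were compared next. The median span of the loops, weighted by read pairs, was 134787 ± 23162 bp on the segment and 132303 ± 9523 bp on the rest in bulk, and 78587 ± 8421 and 78889 ± 949 bp in cluster2. The difference was 2484 ± 20285 bp in bulk, higher in 7 of 12 libraries, and -302 ± 8158 bp in cluster2, higher in 2 of 5. An exact two-sided sign-flip permutation test within each group did not detect it (adjusted p = 0.935 and 1), and its sign changed without bulk replicate 1 (-1497 bp) and without cluster2 replicate 3, 4 or 5 (440, 1098 and 1676 bp), so no difference in span was detectable.

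The share of read pairs in promoter loops, those in which at least 1 end lies no more than 5 kb from a start site, was lower on the segment than on the rest. In bulk it was 39.1% ± 2.496 on the segment and 49.9% ± 4.01 on the rest, a difference of -10.8 ± 1.90 percentage points that was negative in 12 of 12 libraries (exact sign-flip permutation test, two-sided, p = 0.000488, adjusted over 6 tests 0.00146). In cluster2 it was 91.6% ± 1.20 and 94.9% ± 0.199, a difference of -3.28 ± 1.15 that was negative in 5 of 5 libraries, with the smallest p that 5 libraries allow (exact p = 0.0625, adjusted 0.125). The differences of the 2 groups were 7.48 percentage points apart (exact permutation test over the 17 libraries, two-sided, p = 0.000162, the smallest it can give, adjusted 0.00097). The groups start from unlike shares on the rest, 49.9% in bulk and 94.9%, near the ceiling, in cluster2. The gap between them therefore depends on the percentage-point scale, and no weaker effect in cluster2 is read from it. Set against chromosome 1 before 130 Mb in place of the rest, the bulk difference was 0.42 and the cluster2 difference 1.58 percentage points, and the 2 were 1.16 apart (adjusted p = 0.305). Over anchors in both sets the groups were 1.12 apart (adjusted p = 0.604). The lower share was therefore one of the segment against other chromosomes, and not against the rest of its own. Of the anchors themselves, 16.7% on the segment, 17.9% on the rest and 13.98% on chromosome 1 before 130 Mb lay near a start site. P-values measure the spread between these libraries. Nothing says that the bulk libraries came from separate cultures, or that each cluster2 library came from its own sort.

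**Figure D4:**
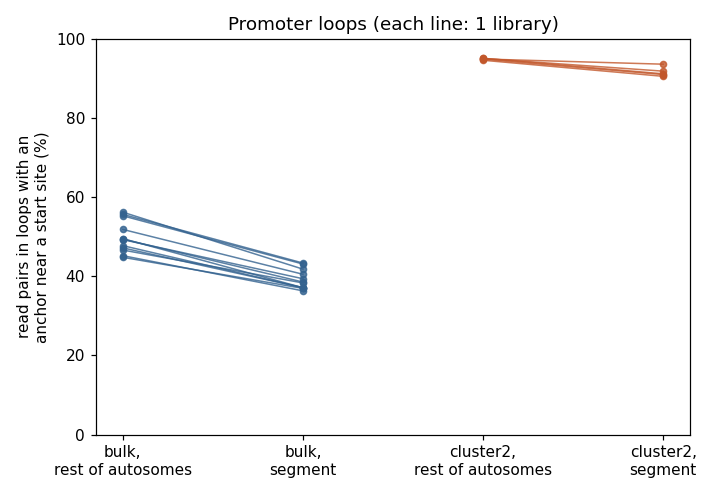
Share of read pairs in promoter loops (y axis, percent) on the rest of the autosomes and on the segment (x axis); each line is 1 library. All 12 bulk lines fall, from a mean of 49.9 to 39.1%, and the 5 cluster2 lines fall from 94.9 to 91.6%.

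In sequence the anchors of the segment were like those elsewhere. Their median width was 2319 bp (2330 on the rest), their median GC content 44.0% (43.9%), their ratio of observed to expected CG 0.194 (0.190), and they held 1.46 GATC sites per kb (1.502). The 393 anchors in the cluster2 set were wider (3278 bp), richer in GC (49.7%) and more often near a start site (65.6%). A direct repeat of AGGTCA with 5 bases between the copies, a form of the element bound by retinoic acid receptors, was searched on both strands in the central 500 bases. It lay in 3 of 6821 anchors of the segment (0.0440%) and in 110 of 204215 on the rest (0.0539%). The single hexamer AGGTCA, which the repeat contains, lay in 29.9% and 29.6%.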

How the data were processed

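HiChIP for H3K27ac was measured in 12 bulk and 5 cluster2 libraries, grouped by the labels. Per the study's methods and the labels, reads were mapped to mm9 with HiC-Pro, and the deposited values are raw counts of read pairs per loop. A group's anchor set was taken as the anchors found in its loop lists. Overlapping anchors were joined, and the 700 read pairs whose anchors thereby became 1 were dropped. A read pair was counted at both its anchors. Coordinates are mm9; the genome (NCBIM37) and the GENCODE M1 annotation have the same chromosome lengths. Depth was 50508 to 241068 read pairs per library, which covers counting error only.

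Windows were 1 Mb, and high means at least 2 times the median autosomal window with 10 or more anchors. Runs of high windows were joined over gaps of 1 window. Fits used edgeR 4.0.16 quasi-likelihood tests with TMM on all anchors, genes or loops with 20 or more read pairs that were seen in 5 or more libraries, with Benjamini-Hochberg adjustment (0.05); DESeq2 1.42.0 was an alternative. CPM values were computed from the deposited counts over the effective library size of their level (anchors, genes or loops), and do not compare between levels. Spans and shares were tested by exact permutation (Python 3, scipy). The fits were also run on simulated counts in which 200 features changed and the groups were otherwise alike. In the data 86.0% of tested anchors were called, so that simulation does not check the scaling used here. Alternatives were other scalings, filters, comparators, windows and leaving out each library. The alternatives of like anchor number and all listed read pairs were chosen after seeing the data.

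The members, gene lists and markers were chosen with earlier results of these data known. Named were the 10 genes with most bulk and the 5 with most cluster2 read pairs, the 3 leading from 140 to 150 Mb, Prox1 and the 2 leading of each list; other members of the lists, the leading anchors and loops and those of Prox1 are given as examples. Some members of the lists are not reported here.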

Additional observations from a re-analysis of the deposited data

Results flagged for a closer look

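In the share of read pairs in loops with an anchor near a start site, the difference of the segment from the rest was 7.48 percentage points less negative in cluster2 than in bulk. The groups were 1.16 points apart when chromosome 1 before 130 Mb was the comparator. They start from unlike shares on the rest, so the gap depends on the percentage-point scale. In 3 of 50 sets of 5 cluster2 values, 1 library lay far from the other 4, where chance gives about 1 in 20: the anchor at Nuak2 (134218298) at 26.96 CPM in replicate 5, against 8.13 to 11.7 in the others; the Ptprc anchor (140031343), with 1 read pair or 4.07 CPM in replicate 3, against 0; and the loop at 182697395, at 43.9 in replicate 2 against 17.8 to 24.3.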

How the results depend on the processing

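The distal run started at 152000001 to 153000001 under every window setting tried, and the one before 140 Mb at 132500001 to 134000001, except at 1.5 times the median, where it joined the run across the segment's start (128000001 to 141000000). That run was not found with 2 Mb windows, at 3 times the median or against windows with a like number of anchors. Bulk read pairs per anchor were 1.98 times the rest over anchors in both sets and 5.28 over loops of at least 2 read pairs; cluster2 was at 0.604 with all joined anchors and 1.25 against chromosome 1 before 130 Mb; the bulk ratio of 140 to 150 Mb to the other windows of the segment was 0.0648 over anchors in both sets. Against chromosome 1 before 130 Mb the span differences were -17179 (bulk), 9760 (cluster2) and 26939 bp (between groups), and the promoter differences 0.424, 1.58 and 1.16 points; over anchors in both sets spans were -2248 (bulk) and 1941 bp (between groups), and promoters 1.12 apart. Leaving out 1 library gave spans of -1497 to 4639 (bulk), -3292.5 to 1676 (cluster2) and -5776 to 1195 bp (between groups); anchors higher 4 to 7; loops higher 15 to 24.

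Anchors called higher were 102 with library size alone, 19 with DESeq2, 4 with at least 50 read pairs and 4 with no filter. Anchors called lower were 2597 under the replicate block, 2227 above a minimum of 50 read pairs, 2611 in the same 10 libraries without it and 193 over anchors in both sets. Genes called higher were 3 (library size alone), 60 (all listed read pairs) and 2 (2.5 kb); genes lower were 127 over anchors in both sets. Loops higher were 117 (library size alone), 2 (50 read pairs), 10 (no filter), 2 (block) and 9 (no block); loops lower were 26, 5, 49, 52 and 49 (50 read pairs, no filter, block, no block, both sets). Replicate numbers are shared by the groups, but same-numbered libraries did not deviate together (r = -0.0244 to 0.0051, 5 pairs), so the block is not a pairing.

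Directions that turned, beside those of list members: Pfdn2 (0.0817 with library size, 1.63 with all listed read pairs), Dedd (-0.0251), Usp21 (-0.44; -0.0600 with 2.5 kb), Ufc1 (-0.39) and Nit1 (-0.25) over anchors in both sets, the Csrp1 anchor (-0.00253) and its loop (2.27, 0.025 with DESeq2, 1.22 with no filter, 0.24 over both sets). The direction of 2 called results turned with library size alone: the Dcaf8 anchor (0.56) and the loop at 182697395 (0.89). Among list members named in the text, Hnrnpu (0.29) and 1 Nav1 entry (1.13) turned with all listed read pairs. The Dedd and Tor1aip loops were not called with the replicate block (adjusted p = 0.133 and 0.184) or in its 10 libraries without it (0.110 and 0.0905). The cause was not tested.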
